A study of Mus musculus with 9 samples.

Results

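Genes for collagen chains, laminin chains, integrin chains and 5 further matrix proteins were followed across 3 groups of mouse embryonic stem (ES) cell libraries. Members were chosen by gene symbol alone: every collagen alpha chain, laminin chain and integrin chain, together with the nidogens Nid1 and Nid2, perlecan (Hspg2), Sparc and fibronectin (Fn1). The rule found 89 of the 40213 symbols in the deposited tables. Of these, 63 averaged at least 1 CPM (counts per 1000000 counts, with library sizes scaled by TMM) in at least 1 group, and these are the members described below. The other 26 lay under 1 CPM in every group, although 9 of them had enough counts to be tested. The 63 comprised 17 of 23 basement membrane genes, 10 of 12 fibrillar collagens and fibronectin, 14 of 25 other collagens and 21 of 27 integrin chains. The last was Itgb3bp, a centromere protein gene whose symbol matched by spelling and which encodes no integrin.

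The control group held 3 libraries of J1, an established ES cell line. The other 2 groups were stable lines, labelled Niwa, with 3 libraries each. One carried OCT4, the pluripotency factor, and the other carried EWS-OCT4, in which OCT4 is fused to EWS, an RNA-binding protein. All cells grew in ES medium with LIF, a cytokine that sustains self-renewal, and the stable lines received 1 µg/ml doxycycline to lower endogenous OCT4. The series asks whether the fusion can replace OCT4 in self-renewal. J1 and the Niwa lines are named as separate lines, so line background, transgene and doxycycline cannot be told apart in comparisons with J1. Each group is 1 named line, and whether its numbered libraries were separate cultures or clones is not given, so the p-values speak to the variation among these libraries alone, and that variation may be technical.

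Library totals ran from 21149358 to 24786305 counts. The Pou5f1 symbol, which encodes OCT4, stood at 522, 639 and 545 CPM in J1, 165, 168 and 162 CPM in the OCT4 line and 25.6, 29.3 and 25.6 CPM in the EWS-OCT4 line. Endogenous and introduced OCT4 are not separated in these counts. The 12 ES cell markers examined were present above 1 CPM in every group, with summed levels of 5163 to 5666 CPM in J1, 4019 to 4128 CPM in the OCT4 line and 4479.9 to 4579 CPM in the EWS-OCT4 line.

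Collagens and laminins are the main structural proteins of the extracellular matrix. In basement membranes, laminin trimers of an alpha, a beta and a gamma chain and a network of collagen IV form linked sheets, with nidogen and perlecan as connectors. Fibrillar collagens and fibronectin instead form the fibres of connective tissue. Integrins, each a pair of an alpha and a beta chain, are the cell surface receptors that bind these proteins and join them to the actin cytoskeleton. The early embryo lays down laminin and collagen IV under its epithelia and endoderm, and cultured ES cells attach to laminin and fibronectin through integrins that share the Itgb1 chain.

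The matrix genes shifted in both directions in each comparison. In the EWS-OCT4 line versus the OCT4 line, 20 of the 63 members were higher (31.7%) and 33 were lower (52.4%) by edgeR's quasi-likelihood test at an adjusted p of 0.05. Over all 16562 genes tested, 31.9% were called higher and 34.6% lower in that comparison. In EWS-OCT4 versus J1, 20 members were higher and 27 lower, where 30.3% of all tested genes were called higher and 31.6% lower. In OCT4 versus J1, 22 members were higher and 21 lower, shares of 34.9% and 33.3% that lay close to the 34.3% and 32.7% of all tested genes. At least 2-fold, 6 members were higher and 15 lower in EWS-OCT4 versus OCT4 (8.54% and 15.8% of all tested genes), 6 and 19 in EWS-OCT4 versus J1 (8.10% and 12.5%), and 11 and 11 in OCT4 versus J1 (15.0% and 11.5%). The median log2 fold change over the 63 members was -0.40, -0.03 and 0.04 in these 3 comparisons, against -0.02, 0.01 and 0.00 over the 14991 genes that reached 1 CPM. The 2 comparisons with J1 share the J1 libraries, and each pair of comparisons shares a group, so their values are given side by side.

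Lower calls in the EWS-OCT4 line were counted separately for weak and stronger members. Of the 20 members between 1 and 5 CPM, 13 were lower and 1 was higher in EWS-OCT4 versus OCT4. Over all genes at that level, 39.6% were lower and 20.1% higher. Among the 43 members with at least 5 CPM, 20 were lower and 19 were higher, against 34.3% and 38% of all genes at that level. Against J1, 14 of the 20 weak members and 13 of the 43 stronger ones were lower in EWS-OCT4, and 1 and 19 were higher. Over all genes 37.2% were lower and 20.6% higher at the weak level, and 31.1% lower and 35.7% higher at the stronger one. The share of lower calls among the stronger members was thus near that of all genes against J1. Between the stable lines it was above the 34.3% of all genes. Members were admitted by their level in the group where they were highest, so counts over weak members carry that selection.

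**Figure D1:**
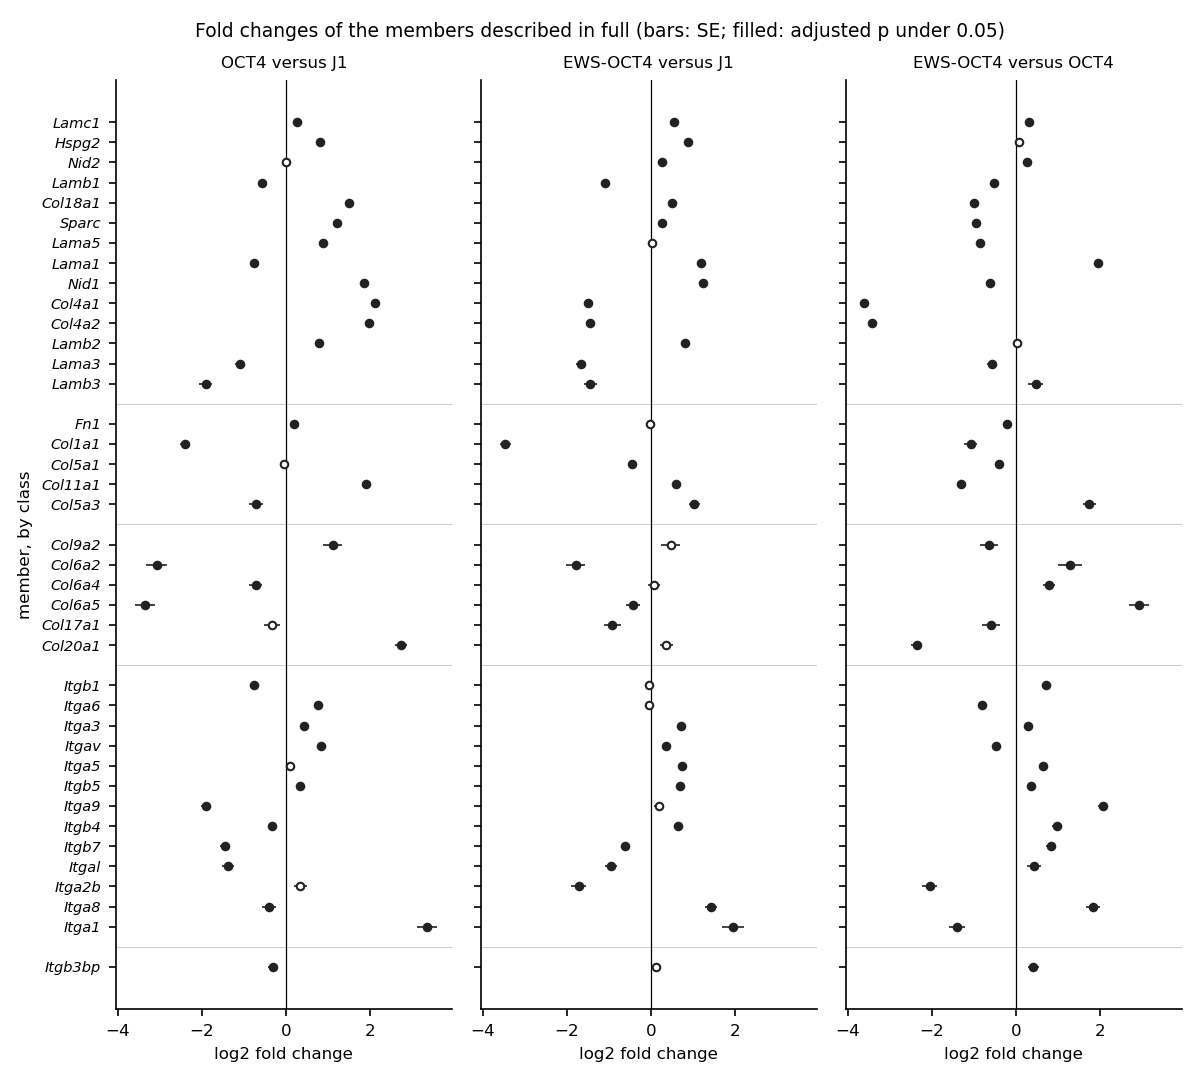
Log2 fold change (x axis) of 39 members described with values per library (y axis, ordered by class and by level in J1) in each of the 3 comparisons. Points are edgeR estimates, bars their standard errors, and filled points passed an adjusted p of 0.05. Col4a1 and Col4a2 lie near 2 in OCT4 versus J1 and beyond -3 in EWS-OCT4 versus OCT4.

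The basement membrane class held most of the abundant members. It had 10 higher and 4 lower members of 17 in OCT4 versus J1 (against 34.3% and 32.7% of all tested genes). In EWS-OCT4 versus J1, 9 were higher and 7 lower (30.3% and 31.6%), and in EWS-OCT4 versus OCT4, 5 and 10 (31.9% and 34.6%). The medians were 0.78, 0.26 and -0.57 on the log2 scale. The summed level of the class was 2414 ± 88.1 CPM in J1, 3985 ± 114 CPM in the OCT4 line and 3286 ± 56.8 CPM in the EWS-OCT4 line (mean ± SD, n = 3 throughout), with no overlap between any 2 groups. For 3 against 3 libraries the exact permutation test, two-sided, can give no p below 0.1, and it gave 0.1 for each of these pairs (0.116 after adjustment over the 57 such tests run on 19 summed levels, shares and ratios).

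Col4a1 and Col4a2 encode the chains that form the common collagen IV trimer. Col4a1 stood at 72.5, 72.7 and 72.3 CPM in the J1 libraries, 292, 331 and 315 CPM in the OCT4 line and 27.2, 24.3 and 25.3 CPM in the EWS-OCT4 line. The OCT4 line was thus highest, the EWS-OCT4 line lowest, and no library of 1 group reached another group. Col4a1 was 4.31-fold higher in the OCT4 line than in J1 (log2 2.11, SE 0.0698, edgeR adjusted p = 4.96e-14) and 2.83-fold lower in the EWS-OCT4 line than in J1 (log2 -1.50, SE 0.0729, edgeR adjusted p = 1.66e-11). Between the stable lines the difference was 12.2-fold (log2 -3.61, SE 0.0759, edgeR adjusted p = 4.46e-16).

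Col4a2 followed the same order, with 30.4, 38.5 and 37.5 CPM in J1, 138, 136 and 141 CPM in the OCT4 line and 12.8, 14.6 and 11.5 CPM in the EWS-OCT4 line. The log2 fold changes were 1.97 (SE 0.0901) in OCT4 versus J1, -1.45 (SE 0.0995) in EWS-OCT4 versus J1 and -3.41 (SE 0.0993) in EWS-OCT4 versus OCT4. The edgeR adjusted p was 1.35e-09 or lower in all 3. Per kilobase of the longest coding transcript, the ratio of Col4a1 to Col4a2 was 2.02 ± 0.267 in J1, 2.204 ± 0.155 for the OCT4 line and 1.94 ± 0.284 for the EWS-OCT4 line. These ratios overlapped between groups, with exact permutation p-values of 0.3, 0.9 and 0.3, in a design whose smallest possible p is 0.1. Together the pair made up 98.4 ± 0.277%, 99.7 ± 0.1002% and 98.00 ± 0.176% of the 6 collagen IV chains per kilobase in J1, OCT4 and EWS-OCT4. Of the other 4, Col4a5 alone reached 1 CPM, at 1.05 ± 0.181, 1.08 ± 0.446 and 0.571 ± 0.218 CPM. Col4a5 lies on chromosome X. The chromosome X median log2 fold change differed from the autosomal median by 0.659 in OCT4 versus J1 and 0.122 in EWS-OCT4 versus J1. Between the stable lines it differed by -0.519, and its part in the Col4a5 values was not tested.

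Col4a1 and Col4a2 lie on chromosome 8 and are read in opposite directions from a shared start region. In RefSeq on build GRCm38.p6 their start sites face each other and the transcripts overlap by 22 bases, chr8:11312805-11312826. This stretch is shown on the plus strand, with a GC box (GGGCGG) in capitals. Reads from it could belong to either gene where counting does not use strand.
Col4a1 and Col4a2 start overlap: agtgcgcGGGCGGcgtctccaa
Both stable lines had lower levels of chromosome 8 genes as a whole than J1, with a median log2 fold change that differed from the autosomal median by -0.455 in EWS-OCT4 versus J1 and by -0.457 in OCT4 versus J1. Between the stable lines the chromosome 8 median differed from the autosomal one by 0.011. The part of the chromosome-wide shift in the Col4a1 and Col4a2 values was not tested.

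The start windows (250 bases before to 50 after a gene's start, RefSeq, GRCm38.p6) were present for 44 of the 63 described members. They were present for 12526 of the tested genes. A gene with more than 1 window counted once, as holding a motif found in any of its windows. A GC box (GGGCGG or CCGCCC) occurred in 68.2% of these members and in 64.7% of these tested genes. A CCAAT box (CCAAT or ATTGG) occurred in 31.8% against 43.3%, and a TATA box (TATAAA or TTTATA) in 6.82% against 9.21%. The POU octamer (ATGCAAAT or ATTTGCAT), the motif that OCT4 binds, occurred in 0 of the 44 members and in 1.72% of these tested genes. Both strands were searched, the motifs were counted independently of each other, and a match here is a match of letters only. Stretches upstream of 3 members that differed between the stable lines are shown 5′ to 3′ on the gene's strand, with GC and CCAAT boxes in capitals. They cover chr13:13437352-13437550 on the plus strand for Nid1, chr2:180225860-180226109 on the minus strand for Lama5 and chr12:31265043-31265233 on the plus strand for Lamb1.
Nid1 upstream: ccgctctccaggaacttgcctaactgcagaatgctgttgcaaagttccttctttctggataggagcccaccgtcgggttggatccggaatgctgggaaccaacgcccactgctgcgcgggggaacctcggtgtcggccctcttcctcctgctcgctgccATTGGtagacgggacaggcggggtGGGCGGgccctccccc
Lama5 upstream: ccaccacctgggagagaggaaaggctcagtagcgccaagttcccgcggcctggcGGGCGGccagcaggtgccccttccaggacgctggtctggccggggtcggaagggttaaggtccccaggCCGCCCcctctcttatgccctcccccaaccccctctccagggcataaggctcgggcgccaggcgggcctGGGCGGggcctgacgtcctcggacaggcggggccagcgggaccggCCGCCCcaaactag
Lamb1 upstream: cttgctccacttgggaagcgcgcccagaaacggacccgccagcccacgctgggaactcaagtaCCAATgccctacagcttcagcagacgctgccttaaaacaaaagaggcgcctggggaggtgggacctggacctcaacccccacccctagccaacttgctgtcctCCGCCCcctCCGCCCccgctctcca
Lama5 has 4 GC boxes in this stretch and Lamb1 has 2, while Nid1 has 1. Nid1 and Lamb1 each hold 1 CCAAT box, and Lama5 holds 0. Nid1 and Lama5 were highest in the OCT4 line and Lamb1 was highest in J1 (values below).

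The laminin alpha chains changed places between the lines. Lama1, the alpha chain of the laminin abundant in early embryonic membranes, stood at 131, 127 and 129 CPM in J1, 78.5, 77.8 and 70.9 CPM in the OCT4 line and 298, 296 and 289 CPM in the EWS-OCT4 line, with the 3 groups fully apart. It was 3.89-fold higher in the EWS-OCT4 line than in the OCT4 line (log2 1.96, SE 0.0663, edgeR adjusted p = 1.07e-13) and 2.28-fold higher than in J1 (log2 1.19, SE 0.0644, edgeR adjusted p = 6.59e-11). In OCT4 versus J1 it was 1.704-fold lower (log2 -0.77, SE 0.0652, edgeR adjusted p = 1.06e-08).

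Lama5, the alpha chain of the most widespread epithelial laminin, showed another order. Its libraries stood at 165, 144 and 149 CPM in J1, 279, 295 and 266 CPM in the OCT4 line and 154, 154 and 157 CPM in the EWS-OCT4 line. The OCT4 line lay above both others, whereas J1 and the EWS-OCT4 line overlapped. The log2 fold change was 0.88 (SE 0.0698) in OCT4 versus J1 and -0.85 (SE 0.0698) in EWS-OCT4 versus OCT4, with edgeR adjusted p of 4.55e-09 and 8.73e-09. For EWS-OCT4 versus J1 it was 0.03 (SE 0.0697, edgeR adjusted p = 0.764).

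Compared per kilobase, Lama1 and Lama5 together made up most of the 5 alpha chains in every group. The ratio of Lama1 to Lama5 was 0.953, 1.06 and 1.03 in the J1 libraries, 0.337, 0.315 and 0.319 for the OCT4 line and 2.31, 2.295 and 2.201 for the EWS-OCT4 line. Lama1 was therefore 45.6 ± 1.01% of alpha chain signal in J1, 23.3 ± 0.644% for the OCT4 line and 67.8 ± 0.472% for the EWS-OCT4 line, and Lama5 45.04 ± 1.52%, 72.01 ± 0.719% and 29.9 ± 0.581%. No groups overlapped in these measures, and each exact permutation p was 0.1, the smallest the design allows.

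Lamb1, the main laminin beta chain, stood at 236, 236 and 256 CPM in J1, 172, 157 and 164 CPM in the OCT4 line and 111, 114 and 117 CPM in the EWS-OCT4 line, with no overlap. The log2 fold change was -0.56 (SE 0.0653) in OCT4 versus J1, -1.09 (SE 0.0661) in EWS-OCT4 versus J1 and -0.53 (SE 0.0659) between the stable lines, with an edgeR adjusted p of 1.8e-06 or lower. Lamb1 lies on chromosome 12, whose median was lower than the autosomal one by differences of -0.209 and -0.331 in the comparisons with J1 and of -0.075 between the stable lines; its part in the result was not tested.

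Lamb2, the beta chain of mature membranes, was at 25.99, 31.4 and 32.3 CPM in J1, 50.9, 52.6 and 50.7 CPM in the OCT4 line and 50.4, 52.3 and 54.5 CPM in the EWS-OCT4 line. Both stable lines lay above J1 (log2 0.78 and 0.81, edgeR adjusted p = 1.62e-07 and 1.7e-07) and overlapped each other (log2 0.03, SE 0.0796, edgeR adjusted p = 0.772). Per kilobase, Lamb2 made up 10.8 ± 0.932% of the 3 beta chains in J1, 24.1 ± 1.13% for the OCT4 line and 31.4 ± 0.385% for the EWS-OCT4 line, and Lamb1 85.6 ± 0.834%, 74.7 ± 1.21% and 66.5 ± 0.375%.

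Lamc1, the gamma chain shared by most laminins, was the highest laminin gene per kilobase in every group. Its libraries stood at 567, 500.1 and 569.5 CPM in J1, 679, 637 and 637 CPM in the OCT4 line and 778, 808 and 819.9 CPM in the EWS-OCT4 line, an ascending order without overlap. The fold changes were modest, 1.19-fold in OCT4 versus J1, 1.47-fold in EWS-OCT4 versus J1 and 1.23-fold in EWS-OCT4 versus OCT4, with edgeR adjusted p of 0.00378, 2.49e-06 and 0.00107.

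**Figure D2:**
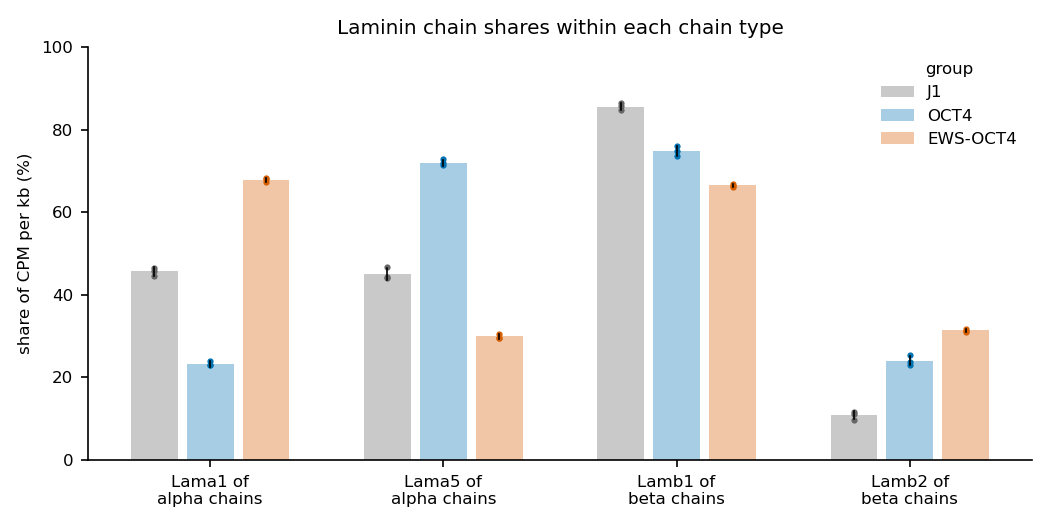
Share (y axis, % of CPM per kilobase) of single laminin alpha and beta chains among all chains of their type (x axis) in each group. Bars are means, points the 3 libraries and black lines the SD. Lama1 falls from 67.8% of alpha chains in the EWS-OCT4 line to 23.3% in the OCT4 line, with Lama5 in the opposite order.

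Lama3 and Lamb3 encode chains of the epithelial laminin that anchors hemidesmosomes. Lama3 stood at 20.8, 18.7 and 22.3 CPM in J1, 9.46, 8.22 and 10.96 CPM in the OCT4 line and 6.59, 6.06 and 6.66 CPM in the EWS-OCT4 line, and Lamb3 at 8.72, 8.62 and 8.23, 1.85, 2.12 and 2.77 and 2.84, 3.51 and 3.03 CPM. Both were highest in J1, with log2 fold changes in EWS-OCT4 versus J1 of -1.68 (SE 0.117) and -1.44 (SE 0.157) and in OCT4 versus J1 of -1.10 (SE 0.111) and -1.92 (SE 0.163).

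Between the stable lines, Lama3 was lower in EWS-OCT4 (log2 -0.57, edgeR adjusted p = 0.000553) and Lamb3 was higher by a small margin (log2 0.47, SE 0.179, edgeR adjusted p = 0.0274). The Lamb3 call did not hold without EWS-OCT4 replicate 2 (adjusted p = 0.0922), without OCT4 replicate 1 (adjusted p = 0.12) and without OCT4 replicate 2 (adjusted p = 0.0758). Lama4, a chain of vascular and mesenchymal laminins, averaged 4.45 ± 0.585, 4.04 ± 0.0832 and 2.34 ± 0.514 CPM in J1, OCT4 and EWS-OCT4, and was lower in EWS-OCT4 than in either other group (log2 -0.93 versus J1 and -0.79 versus OCT4).

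The genes of the connecting proteins Nid1 and Hspg2, of Sparc and of Col18a1 were higher in both stable lines than in J1. Nid1, which links laminin to collagen IV, stood at 96.8, 80.6 and 85.9 CPM in J1, 322, 318 and 310.1 CPM in the OCT4 line and 208, 204 and 208 CPM in the EWS-OCT4 line. The OCT4 line was highest and J1 lowest, with the 3 groups apart. Nid1 was 3.605-fold higher in OCT4 than in J1 (log2 1.85, SE 0.0727, edgeR adjusted p = 4.26e-13), 2.36-fold higher in EWS-OCT4 than in J1 (edgeR adjusted p = 1.58e-10) and 1.53-fold lower in EWS-OCT4 than in OCT4 (edgeR adjusted p = 5.9e-07).

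Its relative Nid2 varied less, at 369, 280.4 and 311 CPM in J1, 320.01, 337 and 309 CPM in the OCT4 line and 391, 382 and 382 CPM in the EWS-OCT4 line. It was 1.202-fold higher in EWS-OCT4 than in J1 (edgeR adjusted p = 0.0109) and 1.196-fold higher than in OCT4 (edgeR adjusted p = 0.0118). The second call was lost without OCT4 replicate 3 (adjusted p = 0.0515). In OCT4 versus J1 its log2 fold change was 0.01 (SE 0.0839). Per kilobase the ratio of Nid1 to Nid2 was 0.2203 ± 0.0101 in J1, 0.788 ± 0.0283 for the OCT4 line and 0.4303 ± 0.00511 for the EWS-OCT4 line, without overlap (exact permutation p = 0.1 for each pair).

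Hspg2, which encodes the heparan sulfate proteoglycan perlecan, stood at 382, 368 and 378 CPM in J1, 635, 719 and 629 CPM in the OCT4 line and 667, 729.6 and 699 CPM in the EWS-OCT4 line. Both stable lines were above J1 (1.76-fold and 1.86-fold, edgeR adjusted p = 1.53e-08 and 8.85e-09) and overlapped each other (log2 0.08, SE 0.0702, edgeR adjusted p = 0.332). Col18a1, the collagen that carries endostatin at its end, stood at 201, 238 and 206, 568, 651 and 600.2 and 283, 314 and 309 CPM in J1, OCT4 and EWS-OCT4. It was 2.83-fold higher in OCT4 than in J1 (edgeR adjusted p = 2.48e-11), 1.41-fold higher in EWS-OCT4 than in J1 (edgeR adjusted p = 3.74e-05) and 2.01-fold lower in EWS-OCT4 than in OCT4 (edgeR adjusted p = 5.09e-09).

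Sparc, a collagen-binding protein abundant in endoderm and remodelling matrix, was the second highest member per kilobase in the OCT4 line. Its libraries stood at 166, 154 and 142 CPM in J1, 354, 359 and 363 CPM in the OCT4 line and 188, 176 and 191 CPM in the EWS-OCT4 line. Sparc was 2.33-fold higher in OCT4 than in J1 (log2 1.22, SE 0.0708, edgeR adjusted p = 7.21e-11) and 1.94-fold lower in EWS-OCT4 than in OCT4 (edgeR adjusted p = 2.17e-09). It was 1.200-fold higher in EWS-OCT4 than in J1 (edgeR adjusted p = 0.00355). Sparc lies on chromosome 11, whose median differed from the autosomal one by -0.461 in OCT4 versus J1, -0.507 in EWS-OCT4 versus J1 and -0.044 between the stable lines, and its part in the result was not tested.

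Set against each other, the 2 networks of the membrane had different balances in the 3 groups. The ratio of Col4a1 plus Col4a2 to Lama1 plus Lama5, per kilobase, was 0.554, 0.654 and 0.6301 in the J1 libraries, 2.01, 2.09 and 2.25 for the OCT4 line and 0.136, 0.133 and 0.127 for the EWS-OCT4 line. The lowest OCT4 library was above the highest J1 library, and the lowest J1 library was above the highest EWS-OCT4 library (exact permutation p = 0.1 for each pair, the smallest the design allows).

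**Figure D3:**
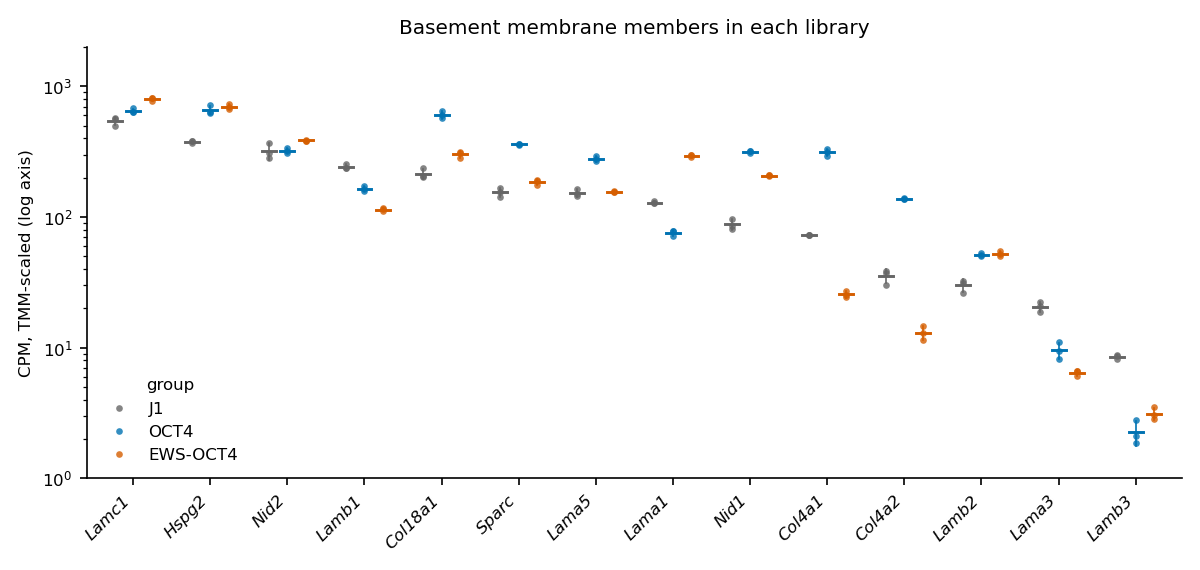
CPM per library (y axis, log scale) of 14 basement membrane members with values per library (x axis, ordered by mean in J1). Points are single libraries, horizontal lines group means and vertical lines the SD. Col4a1 spans 25.6 CPM in the EWS-OCT4 line to 313 CPM in the OCT4 line, while Lama1 runs in the opposite order between these lines.

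Markers of cell types that make basement membrane also differed between the groups. The 15 primitive and parietal endoderm markers summed to 47.0 to 55.5 CPM in J1, 40.6 to 42.8 CPM in the OCT4 line and 14.9 to 17.1 CPM in the EWS-OCT4 line. Of the 9 that reached 1 CPM, 1 was higher and 8 were lower in EWS-OCT4 versus J1. Over all tested genes, 30.3% were higher and 31.6% lower in that comparison. In EWS-OCT4 versus OCT4, 1 of the 9 was higher and 7 were lower (against 31.9% and 34.6% of all tested genes). In OCT4 versus J1, 3 were higher and 3 lower (34.3% and 32.7%). Gata6, an endoderm regulator, averaged 1.76 CPM in J1, 9.34 CPM in the OCT4 line and 0.382 CPM in the EWS-OCT4 line. Sox17, another, averaged 0.677, 0.134 and 0.0605 CPM. Sox7 was instead highest in the EWS-OCT4 line, at 2.71 CPM against 0.596 CPM in J1 and 0.197 CPM in the OCT4 line. None of the 15 was at 0 in all libraries of a group.

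The 12 trophectoderm markers summed to 152 to 185 CPM in J1, 560.5 to 601 CPM in the OCT4 line and 257 to 272 CPM in the EWS-OCT4 line. Tfap2c was the largest part of that sum in every group, at 91.0, 215 and 104 CPM in J1, OCT4 and EWS-OCT4. Of the 10 that reached 1 CPM, 9 were higher and 0 lower in OCT4 versus J1. The shares over all tested genes were 34.3% and 32.7%. Among the 9 was the trophoblast regulator Hand1, at 78.2 CPM in OCT4 against 1.78 CPM in J1. Tpbpa, a marker of differentiated trophoblast, was at 0 in every group. In EWS-OCT4 versus OCT4, 1 of the 10 was higher and 7 were lower (against 31.9% and 34.6% of all tested genes). In EWS-OCT4 versus J1, 6 were higher and 1 was lower (30.3% and 31.6%). The 10 endothelial and muscle markers summed to between 157 and 189 CPM over the 9 libraries, with Emcn at 0 throughout. Pecam1 was the largest part of that sum in every group, at 117 CPM in the EWS-OCT4 line. Of the 6 that reached 1 CPM, 4 were higher and 2 lower in OCT4 versus J1 (against 34.3% and 32.7% of all tested genes). In EWS-OCT4 versus J1, 1 of the 6 was higher and 2 were lower (30.3% and 31.6%). In EWS-OCT4 versus OCT4, 1 was higher and 2 were lower (31.9% and 34.6%). In J1 and OCT4, Pecam1 averaged 127 and 75.7 CPM, whereas Tek averaged 21.7 and 47.1 CPM and Des 25.4 and 49.3 CPM. The part of these cell types in the basement membrane values was not tested, and in these bulk samples a change in the number of cells of a type and a change in RNA per cell cannot be told apart.

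Among fibrillar collagens and fibronectin, the chains Col1a1 and Col1a2 had the largest fold changes in EWS-OCT4 versus J1. Of the 10 members, 1 was higher and 8 were lower in EWS-OCT4 versus OCT4 (against 31.9% and 34.6% of all tested genes). In EWS-OCT4 versus J1, 2 were higher and 5 lower (30.3% and 31.6%), and in OCT4 versus J1, 3 and 2 (34.3% and 32.7%). The medians were -0.72, -0.24 and 0.08 on the log2 scale. Without Fn1 the summed level was 88.7 ± 6.17 CPM in J1, 79.8 ± 3.24 CPM in the OCT4 line and 57.8 ± 1.601 CPM in the EWS-OCT4 line. EWS-OCT4 lay below both other groups (exact permutation p = 0.1 each), and J1 and OCT4 overlapped (exact permutation p = 0.2).

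Fn1, the fibronectin gene, was the highest member per kilobase in every group. Its libraries stood at 1735, 1454 and 1656 CPM in J1, 1819, 1897 and 1792 CPM in the OCT4 line and 1559, 1599 and 1581 CPM in the EWS-OCT4 line, so the OCT4 line was slightly above the others. In EWS-OCT4 versus J1 the log2 fold change was -0.03 (SE 0.0748, edgeR adjusted p = 0.728). The OCT4 versus J1 difference (log2 0.18, edgeR adjusted p = 0.0371) was lost in 10 of 16 alternatives, including those without J1 replicate 2 (adjusted p = 0.174), J1 replicate 3 (adjusted p = 0.0692), OCT4 replicate 1 (adjusted p = 0.0582) and OCT4 replicate 2 (adjusted p = 0.104). It was also not kept without EWS-OCT4 replicate 1, 2 or 3 (adjusted p = 0.0707, 0.0738 and 0.0677). The EWS-OCT4 versus OCT4 difference (log2 -0.22, edgeR adjusted p = 0.0168) was not kept without EWS-OCT4 replicate 1, 2 or 3 (adjusted p = 0.0917, 0.0677 and 0.061) and without OCT4 replicate 2 (adjusted p = 0.0606).

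Col1a1, the main chain of the collagen of bone and skin, stood at 28.2, 34.6 and 30.8 CPM in J1, 5.36, 5.83 and 6.55 CPM in the OCT4 line and 2.36, 3.46 and 2.61 CPM in the EWS-OCT4 line. J1 was far above both stable lines, and the OCT4 line was above the EWS-OCT4 line. Col1a1 was 11.1-fold lower in EWS-OCT4 than in J1 (log2 -3.47, SE 0.135, edgeR adjusted p = 1.1e-12), 5.27-fold lower in OCT4 than in J1 (log2 -2.40, SE 0.122, edgeR adjusted p = 1.27e-11) and 2.098-fold lower in EWS-OCT4 than in OCT4 (edgeR adjusted p = 9.44e-06). Its partner chain Col1a2 was scarce, at 1.49 ± 0.126 CPM in J1, 1.61 ± 0.347 CPM in the OCT4 line and 0.1198 ± 0.0688 CPM in the EWS-OCT4 line. It was lower in EWS-OCT4 than in either other group (log2 -3.59 and -3.70, SE 0.414 and 0.411), and its log2 fold change in OCT4 versus J1 was 0.11 (SE 0.269).

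Col1a1 lies on chromosome 11, whose median shift is given above for Sparc, and its part in the Col1a1 values was not tested. The 16 fibroblast markers, of which Mmp2, Fbln5, Postn and Loxl1 also belong to lists described below, summed to 99.4 to 113 CPM in J1, 77.9 to 84.4 CPM in the OCT4 line and 63.1 to 67.4 CPM in the EWS-OCT4 line. Of the 9 that reached 1 CPM, 4 were higher and 2 lower in OCT4 versus J1. Over all tested genes, 34.3% were higher and 32.7% lower in that comparison. In EWS-OCT4 versus J1, 4 of the 9 were higher and 3 lower (against 30.3% and 31.6% of all tested genes). In EWS-OCT4 versus OCT4, 2 of the 9 markers were higher and 5 lower (31.9% and 34.6%). Their median log2 fold changes were 0.20, 0.96 and -0.44. Mmp2, a protease gene of this list, averaged 41.1 CPM in J1, 16.97 CPM in the OCT4 line and 9.79 CPM in the EWS-OCT4 line. Thy1 had the same order, at 44.9, 28.6 and 21.1 CPM. Other markers of the list had other orders. In J1, OCT4 and EWS-OCT4, Tagln averaged 1.09, 1.26 and 18.2 CPM and Acta2 0.365, 0.206 and 4.37 CPM. Pdgfrb averaged 12.0, 24.4 and 5.62 CPM. Dcn, Lum, Fap and Twist2, of the same list, were at 0 in all J1 libraries, and 11 of the 16 markers averaged under 1 CPM there. Thy1 and Mmp2, by contrast, were highest in J1. In the OCT4 line Lum and Fap were at 0, and in the EWS-OCT4 line Dcn and Fap. The part of fibroblasts in the Col1a1 values was not tested. Col3a1, the fibrillar partner of Col1a1 in connective tissue, was under 1 CPM in every group.

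The collagens that regulate fibril diameter behaved individually. Col5a1 stood at 28.04, 30.4 and 28.7 CPM in J1, 28.2, 28.6 and 27.4 CPM in the OCT4 line and 20.5, 21.3 and 22.2 CPM in the EWS-OCT4 line, lower in EWS-OCT4 than in the others (log2 -0.45 and -0.40, edgeR adjusted p = 7.21e-05 and 0.000205). Col5a3 ran the other way, at 4.78, 6.82 and 6.39 CPM in J1, 3.05, 3.93 and 3.95 CPM in the OCT4 line and 12.1, 13.4 and 11.4 CPM in the EWS-OCT4 line. It was 3.36-fold higher in EWS-OCT4 than in OCT4 (log2 1.75, SE 0.151, edgeR adjusted p = 1.73e-08) and 2.05-fold higher than in J1 (edgeR adjusted p = 6.53e-06), the only fibrillar gene called higher in EWS-OCT4 versus OCT4.

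Col11a1, a cartilage fibril collagen, stood at 7.39, 6.78 and 7.24 CPM in J1, 26.8, 27.7 and 25.6 CPM in the OCT4 line and 11.5, 10.5 and 10.2 CPM in the EWS-OCT4 line, with the groups apart. It was 3.74-fold higher in OCT4 than in J1 (log2 1.90, SE 0.0932, edgeR adjusted p = 7.78e-12) and 2.49-fold lower in EWS-OCT4 than in OCT4 (edgeR adjusted p = 7.6e-10). Col2a1, the main cartilage collagen, averaged 5.45 ± 0.1804, 5.62 ± 0.304 and 6.23 ± 0.391 CPM in J1, OCT4 and EWS-OCT4 and passed the test in no comparison. The 3 remaining fibrillar members were weak: Col11a2 averaged 0.865, 2.19 and 1.23 CPM, Col27a1 4.504, 3.39 and 2.22 CPM, and Col5a2 1.82, 2.25 and 0.607 CPM. All 3 were lower in EWS-OCT4 than in OCT4, and for Col5a2 the second OCT4 library was at 3.75 CPM against 1.48 and 1.51 CPM in the others.

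The other collagens were all below 20 CPM. In EWS-OCT4 versus J1, 0 of 14 were higher and 8 were lower by edgeR's test (1 was higher at an unadjusted p under 0.05, and DESeq2 called 0 higher). Over all tested genes, 30.3% were higher and 31.6% lower in that comparison, and over genes at 1 to 5 CPM 20.6% and 37.2%. In OCT4 versus J1, 2 of the 14 collagens were higher and 6 lower (against 34.3% and 32.7% of all tested genes). In EWS-OCT4 versus OCT4, 3 were higher and 6 lower (31.9% and 34.6%). The summed level was 56.2 ± 6.42 CPM in J1, 60.9 ± 3.405 CPM in the OCT4 line and 43.9 ± 0.291 CPM in the EWS-OCT4 line, with EWS-OCT4 below both others and the others overlapping (exact permutation p = 0.1, 0.1 and, for OCT4 versus J1, 0.4).

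Col20a1, a collagen with fibronectin-like repeats, stood out in the OCT4 line. Its libraries stood at 2.01, 2.71 and 2.397 CPM in J1, 15.2, 15.7 and 16.3 CPM in the OCT4 line and 3.27, 3.33 and 2.61 CPM in the EWS-OCT4 line. It was 6.63-fold higher in OCT4 than in J1 (log2 2.73, SE 0.141, edgeR adjusted p = 1.62e-11) and 5.13-fold lower in EWS-OCT4 than in OCT4 (edgeR adjusted p = 9.08e-11). In EWS-OCT4 versus J1 its edgeR adjusted p was 0.0581, and it passed without EWS-OCT4 replicate 3 (adjusted p = 0.0281) or without J1 replicate 2 (adjusted p = 0.0288). Col9a2, a chain of a cartilage collagen, was also higher in OCT4 (12.2, 16.4 and 18.6 CPM) than in J1 (4.94, 9.97 and 7.05 CPM), by 2.15-fold (edgeR adjusted p = 0.000873).

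For Col9a2 the EWS-OCT4 libraries lay between, at 9.42, 10.99 and 9.98 CPM. They were lower than the OCT4 line (log2 -0.64, edgeR adjusted p = 0.0209), a call that did not hold without EWS-OCT4 replicate 1 or 3 (adjusted p = 0.0721 and 0.0653) and without OCT4 replicate 2 or 3 (adjusted p = 0.0553 and 0.0791). Against J1 the log2 fold change was 0.47 (edgeR adjusted p = 0.0949), and it passed without J1 replicate 2 (adjusted p = 0.00245).

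Col6a2 and Col6a5, chains of collagen VI, which forms beaded filaments around cells, lay under 1 CPM in the OCT4 line. Col6a2 stood at 4.901, 5.98 and 6.49 CPM in J1, 0.831, 0.407 and 0.798 CPM in the OCT4 line and 1.35, 1.43 and 2.19 CPM in the EWS-OCT4 line. Col6a5 stood at 5.38, 4.99 and 5.27 CPM in J1, 0.554, 0.497 and 0.462 CPM in the OCT4 line and 3.08, 4.76 and 3.75 CPM in the EWS-OCT4 line, 10.2-fold lower in OCT4 than in J1 (log2 -3.36, SE 0.229, edgeR adjusted p = 5.79e-10) and 7.62-fold higher in EWS-OCT4 than in OCT4 (log2 2.93, SE 0.236, edgeR adjusted p = 6.75e-09). Col6a2 was 8.44-fold lower in OCT4 than in J1 (edgeR adjusted p = 8.38e-09) and 3.47-fold lower in EWS-OCT4 than in J1 (edgeR adjusted p = 2.1e-06).

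The Col6a5 difference in EWS-OCT4 versus J1 (log2 -0.43, edgeR adjusted p = 0.0364) did not hold without EWS-OCT4 replicate 1 or 3 (adjusted p = 0.193 and 0.0975) and without J1 replicate 1 or 3 (adjusted p = 0.0799 and 0.0801). Col6a4 stood at 5.95, 5.43 and 5.17, 3.51, 3.66 and 2.86 and 6.15, 5.24 and 5.94 CPM in J1, OCT4 and EWS-OCT4, lower in OCT4 than in either other group (log2 -0.73 versus J1, and 0.79 for EWS-OCT4 versus OCT4). Col6a6 differed from this pattern, with 2.18 ± 0.717 CPM in J1, 1.73 ± 0.189 CPM in the OCT4 line and 0.321 ± 0.121 CPM in the EWS-OCT4 line, where it was lowest.

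Col17a1, the transmembrane collagen of hemidesmosomes, stood at 4.26, 5.98 and 5.17 CPM in J1, 4.25, 3.48 and 4.495 CPM in the OCT4 line and 3.37, 1.77 and 3.03 CPM in the EWS-OCT4 line. It was lower in EWS-OCT4 than in J1 (log2 -0.92, edgeR adjusted p = 0.00103). The lower call against OCT4 (log2 -0.59, edgeR adjusted p = 0.0231) was not kept without EWS-OCT4 replicate 2 (adjusted p = 0.167), OCT4 replicate 1 (adjusted p = 0.0601) or OCT4 replicate 3 (adjusted p = 0.0846). Of the remaining 7, Col13a1, Col16a1, Col7a1, Col8a2 and Col9a3 passed the test in at least 1 comparison, Col22a1 and Col23a1 in none, and all 7 averaged between 0.28 and 5.07 CPM.

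**Figure D4:**
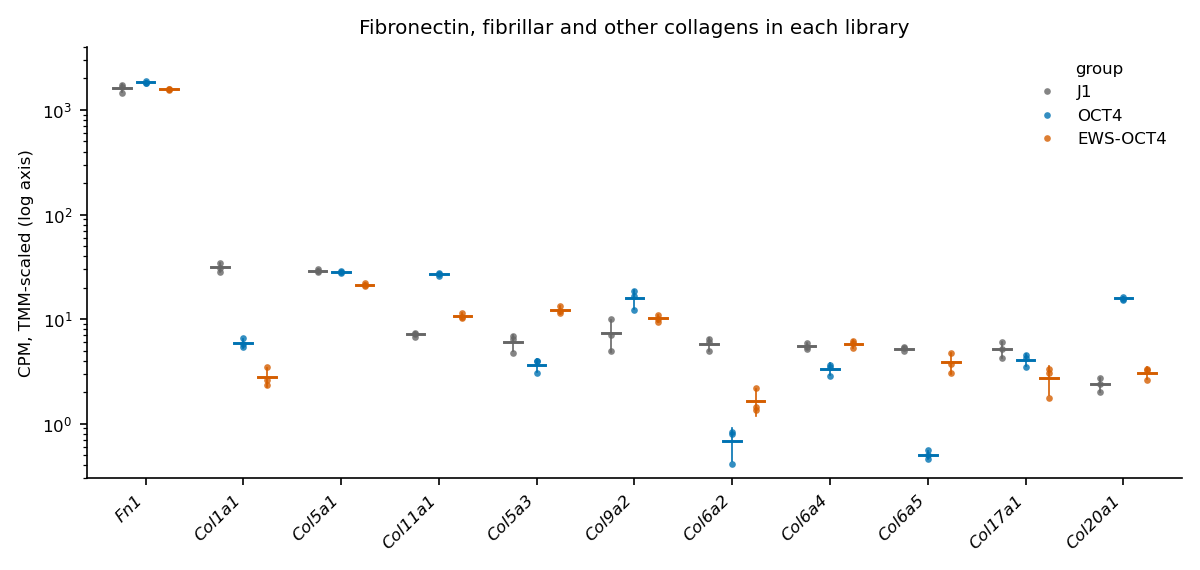
CPM per library (y axis, log scale) of fibronectin, 4 fibrillar collagens and 6 other collagens (x axis) with values per library. Points are single libraries, horizontal lines group means and vertical lines the SD. Col1a1 averages 31.2 CPM in J1 and 2.81 CPM in the EWS-OCT4 line, and Col6a2 and Col6a5 lie under 1 CPM in the OCT4 line.

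Integrin chains moved in both directions, and their summed level overlapped between the stable lines. Of the 21, 7 were higher and 8 lower in OCT4 versus J1 (against 34.3% and 32.7% of all tested genes). In EWS-OCT4 versus J1, 9 were higher and 7 lower (30.3% and 31.6%), and in EWS-OCT4 versus OCT4, 10 and 9 (31.9% and 34.6%). The medians were 0.10, 0.18 and -0.20 on the log2 scale. Integrin counts summed to 554 ± 17.5 CPM in J1, 628 ± 17.3 CPM in the OCT4 line and 629 ± 10.1 CPM in the EWS-OCT4 line. The stable lines overlapped (exact permutation p = 0.8), and both were above J1 (exact permutation p = 0.1 each).

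The laminin receptor chains Itga6 and Itgb1 were the highest integrin chains per kilobase and were shifted in opposite directions in the OCT4 line. Itga6, which binds laminin, stood at 168, 140.04 and 167 CPM in J1, 279, 268 and 255 CPM in the OCT4 line and 158, 153 and 149.9 CPM in the EWS-OCT4 line. Itgb1, the partner of most alpha chains, stood at 176, 161 and 170.04 CPM in J1, 103, 98.8 and 98.7 CPM in the OCT4 line and 174, 157 and 163 CPM in the EWS-OCT4 line. In both genes the OCT4 line stood apart, while J1 and EWS-OCT4 overlapped.

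Itga6 was 1.69-fold higher in OCT4 than in J1 (log2 0.76, SE 0.0753, edgeR adjusted p = 8.62e-08) and 1.74-fold lower in EWS-OCT4 than in OCT4 (edgeR adjusted p = 5.14e-08). Itgb1 was 1.69-fold lower in OCT4 than in J1 (log2 -0.76, SE 0.0662, edgeR adjusted p = 1.64e-08) and 1.65-fold higher in EWS-OCT4 than in OCT4 (log2 0.72, SE 0.0662, edgeR adjusted p = 3.85e-08). In EWS-OCT4 versus J1 the log2 fold changes were -0.04 (SE 0.0753) and -0.04 (SE 0.0654). Itgb1 lies on chromosome 8, whose median shift was -0.457 in OCT4 versus J1, -0.455 in EWS-OCT4 versus J1 and 0.011 between the stable lines, and its part in the result was not tested.

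Per kilobase, the ratio of Itga6 to Itgb1 was 0.845, 0.768 and 0.8705 in the J1 libraries, 2.404, 2.404 and 2.29 for the OCT4 line and 0.801, 0.862 and 0.814 for the EWS-OCT4 line. The OCT4 line was apart from both others (exact permutation p = 0.1 each), and the others overlapped (exact permutation p = 1.0). Over all 18 alpha and 9 beta chains the ratio of alpha to beta was 1.14 ± 0.0427, 2.401 ± 0.09400 and 1.28 ± 0.0497 in J1, OCT4 and EWS-OCT4. Itga6 made up 53.1 ± 3.04%, 62.2 ± 1.32% and 44.3 ± 0.932% of the alpha chains, and Itgb1 73.4 ± 2.33%, 63.1 ± 0.755% and 68.6 ± 1.05% of the beta chains.

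Itga5, the fibronectin receptor chain, stood at 28.9, 29.8 and 28.4 CPM in J1, 30.6, 33.2 and 29.7 CPM in the OCT4 line and 48.7, 48.05 and 49.6 CPM in the EWS-OCT4 line. EWS-OCT4 was above both others (1.68-fold over J1 and 1.56-fold over OCT4, edgeR adjusted p = 8.83e-08 and 3.9e-07), which overlapped. Itgav, the alpha chain for vitronectin and fibronectin, stood at 32.5, 26.9 and 29.1, 50.7, 55.1 and 51.5 and 39.95, 39.1 and 34.9 CPM in J1, OCT4 and EWS-OCT4. It was 1.78-fold higher in OCT4 and 1.29-fold higher in EWS-OCT4 than in J1 (edgeR adjusted p = 9.53e-08 and 0.00113).

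Itgb5, a partner of Itgav, stood at 21.2, 23.02 and 19.9 CPM in J1, 26.5, 27.2 and 26.8 CPM in the OCT4 line and 34.9, 34.1 and 34.1 CPM in the EWS-OCT4 line, apart in all 3 comparisons. Itgb3, another partner, averaged 9.603 ± 0.892, 16.96 ± 2.01 and 11.97 ± 0.307 CPM and was higher in OCT4 than in J1 (log2 0.82, edgeR adjusted p = 2.53e-06). Itga3, a laminin receptor chain on chromosome 11, stood at 63.1, 67.9 and 60.9 CPM in J1, 85.1, 91.03 and 80.2 CPM in the OCT4 line and 100.01, 108 and 105 CPM in the EWS-OCT4 line. It was 1.33-fold and 1.63-fold higher in the OCT4 and EWS-OCT4 lines than in J1 (edgeR adjusted p = 4.56e-05 and 1.34e-07).

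Itgb4, the beta chain of hemidesmosomes and also on chromosome 11, stood at 11.7, 15.2 and 16.5 CPM in J1, 12.4, 11.2 and 11.05 CPM in the OCT4 line and 23.7, 22.03 and 22.5 CPM in the EWS-OCT4 line. It was 1.97-fold higher in EWS-OCT4 than in OCT4 (edgeR adjusted p = 5.87e-07) and 1.57-fold higher than in J1 (edgeR adjusted p = 5.59e-05). The lower call in OCT4 versus J1 (log2 -0.33, edgeR adjusted p = 0.0184), where the libraries overlapped, was lost without J1 replicate 3 (adjusted p = 0.0868) and without OCT4 replicate 2 or 3 (adjusted p = 0.0612 and 0.0677).

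Several alpha chains of lower abundance had larger fold changes. Itga9, which binds tenascin and other ligands, stood at 16.3, 17.1 and 14.3 CPM in J1, 4.89, 4.16 and 3.78 CPM in the OCT4 line and 19.4, 16.4 and 18.4 CPM in the EWS-OCT4 line. It was 3.73-fold lower in OCT4 than in J1 (log2 -1.90, SE 0.122, edgeR adjusted p = 2.74e-10) and 4.23-fold higher in EWS-OCT4 than in OCT4 (log2 2.08, SE 0.122, edgeR adjusted p = 9.93e-11), while J1 and EWS-OCT4 overlapped.

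Itga8, the nephronectin receptor chain, stood at 2.37, 2.99 and 2.73 CPM in J1, 1.94, 2.21 and 1.93 CPM in the OCT4 line and 7.597, 6.75 and 7.41 CPM in the EWS-OCT4 line. It was 2.69-fold higher in EWS-OCT4 than in J1 and 3.57-fold higher than in OCT4 (edgeR adjusted p = 3.43e-07 and 1.79e-08). The small OCT4 versus J1 difference (log2 -0.41, edgeR adjusted p = 0.0448) was lost in 9 of 16 alternatives, with the replicate number as a block (adjusted p = 0.0571) and without EWS-OCT4 replicate 3 (adjusted p = 0.0529), J1 replicate 2 or 3 (adjusted p = 0.149 and 0.0675) or OCT4 replicate 1 or 3 (adjusted p = 0.111 and 0.113) among them.

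Itga1, a collagen receptor chain, stood at 0.643, 0.399 and 0.4701 CPM in J1, 4.89, 5.92 and 4.79 CPM in the OCT4 line and 1.63, 2.34 and 1.895 CPM in the EWS-OCT4 line. It was 10.2-fold higher in OCT4 than in J1 (log2 3.35, SE 0.238, edgeR adjusted p = 1.05e-09), 3.85-fold higher in EWS-OCT4 than in J1 (edgeR adjusted p = 5.6e-06) and 2.65-fold lower in EWS-OCT4 than in OCT4 (edgeR adjusted p = 6.06e-06). The order OCT4, EWS-OCT4, J1 was without overlap. Itga11, another collagen receptor chain, averaged 0.3098 ± 0.0253, 1.22 ± 0.3499 and 0.0742 ± 0.06599 CPM.

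Itgb7 and Itgal, chains known from lymphocytes, had their highest level in J1. Itgb7 stood at 12.9, 15.3 and 14.3 CPM in J1, 5.12, 5.56 and 4.87 CPM in the OCT4 line and 8.65, 9.05 and 10.03 CPM in the EWS-OCT4 line, 2.73-fold lower in OCT4 than in J1 (edgeR adjusted p = 4.97e-09) and 1.53-fold lower in EWS-OCT4 than in J1 (edgeR adjusted p = 0.000103). Itgal stood at 9.96, 8.22 and 8.27 CPM in J1, 3.32, 3.12 and 3.697 CPM in the OCT4 line and 4.47, 4.03 and 5.18 CPM in the EWS-OCT4 line, 2.61-fold and 1.93-fold lower than in J1 (edgeR adjusted p = 2.07e-07 and 1.73e-05). Its higher call in EWS-OCT4 versus OCT4 (log2 0.43, edgeR adjusted p = 0.0217) was not kept without EWS-OCT4 replicate 3 (adjusted p = 0.103) and without OCT4 replicate 1 or 2 (adjusted p = 0.0517 and 0.0727).

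Itga2b, the platelet chain on chromosome 11, stood at 4.78, 4.67 and 3.81 CPM in J1, 5.22, 5.69 and 5.88 CPM in the OCT4 line and 1.15, 1.51 and 1.35 CPM in the EWS-OCT4 line. It was lower in EWS-OCT4 than in OCT4 (4.16-fold, edgeR adjusted p = 1.79e-08) and than in J1 (3.29-fold, edgeR adjusted p = 2.89e-07). In OCT4 versus J1 its edgeR adjusted p was 0.0592. Itgam averaged 3.54 ± 0.549, 1.07 ± 0.285 and 0.361 ± 0.191 CPM, Itgae 3.15 ± 0.789, 1.84 ± 0.175 and 1.09 ± 0.242 CPM and Itgb2 0.787 ± 0.138, 1.28 ± 0.485 and 0.307 ± 0.0993 CPM in J1, OCT4 and EWS-OCT4. All 3 were lowest in EWS-OCT4.

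The remaining integrins were Itga7, which was higher in EWS-OCT4 than in J1 and OCT4 (log2 0.57 and 0.57, means 3.91, 2.62 and 2.63 CPM), and Itga4 and Itga10, which averaged between 0.657 and 1.26 CPM and passed in no comparison. Itgb3bp, the centromere protein gene, stood at 12.97, 11.7 and 10.3 CPM in J1, 8.13, 9.35 and 10.8 CPM in the OCT4 line and 12.8, 11.4 and 13.5 CPM in the EWS-OCT4 line. It was higher in EWS-OCT4 than in OCT4 (edgeR adjusted p = 0.0065), and its lower call in OCT4 versus J1 (edgeR adjusted p = 0.0366) was lost without J1 replicate 1 (adjusted p = 0.128) and without OCT4 replicate 1 or 2 (adjusted p = 0.181 and 0.0878).

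**Figure D5:**
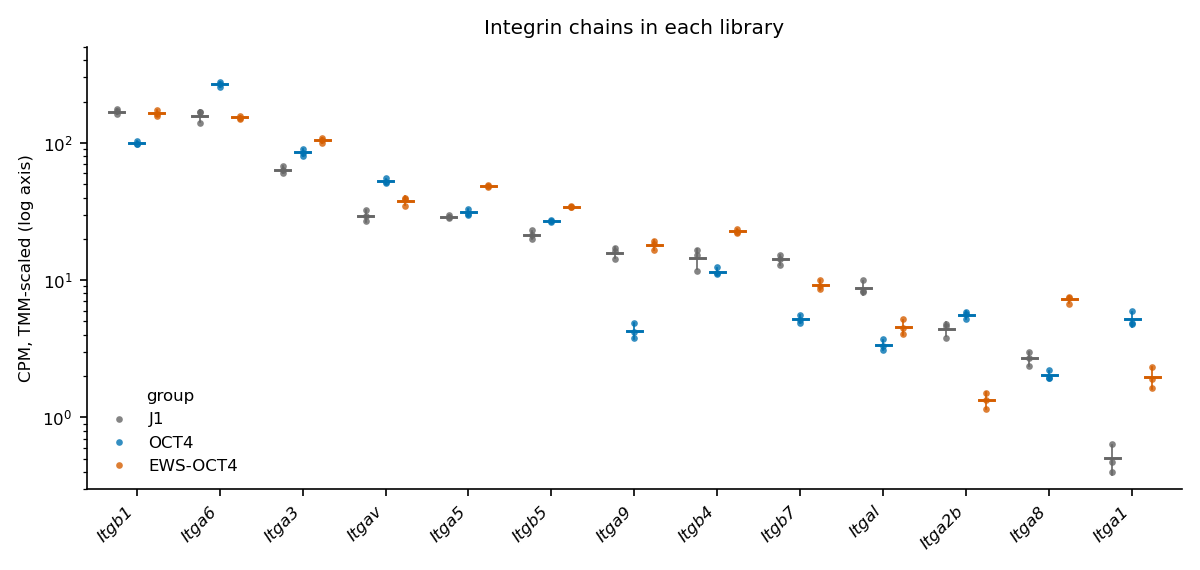
CPM per library (y axis, log scale) of the 13 integrin chains with values per library (x axis, ordered by mean in J1). Points are single libraries, horizontal lines group means and vertical lines the SD. In the OCT4 line Itgb1 lies at 98.7 to 103 CPM and Itga6 at 255 to 279 CPM, whereas in J1 and the EWS-OCT4 line both lie between 140.0 and 176 CPM.

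Genes that build, bind or remodel the same matrix were examined as lists. Of 27 matrix assembly enzymes and chaperones with at least 1 CPM, 5 were higher and 12 lower in OCT4 versus J1. Over all tested genes, 34.3% were higher and 32.7% lower in that comparison. In EWS-OCT4 versus J1, 8 of the 27 were higher and 10 lower (against 30.3% and 31.6% of all tested genes). In EWS-OCT4 versus OCT4, 11 were higher and 8 lower (31.9% and 34.6%). Serpinh1, the collagen chaperone, averaged 22.3 ± 0.836 CPM in J1, 81.4 ± 6.57 CPM in the OCT4 line and 23.9 ± 0.672 CPM in the EWS-OCT4 line. Tgm2, which cross-links matrix proteins, averaged 6.51 ± 0.956, 87.3 ± 5.95 and 8.29 ± 0.544 CPM and was 13.3-fold higher in OCT4 than in J1 (log2 3.74, SE 0.101, edgeR adjusted p = 4.64e-15). Loxl2, a collagen IV cross-linking oxidase, was highest in J1, at 28.6 ± 1.08 CPM against 4.99 ± 1.09 CPM in OCT4 and 7.46 ± 0.275 CPM in EWS-OCT4.

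Within that list, Pcolce2, an enhancer of procollagen processing, was 3.99-fold higher in EWS-OCT4 than in OCT4, and the chaperone Fkbp10 was 2.48-fold higher (edgeR adjusted p = 4.85e-11 and 1.21e-07). Fkbp10 was also 3.54-fold lower in OCT4 than in J1. Crtap and Plod3, which modify procollagen, were higher in EWS-OCT4 than in J1 (log2 1.06 and 0.87), and the prolyl hydroxylase chain P4ha1 was lower (log2 -0.91).

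Of 20 other matrix proteins, 8 were higher and 7 lower in OCT4 versus J1 (against 34.3% and 32.7% of all tested genes). In EWS-OCT4 versus J1, 7 were higher and 7 lower (30.3% and 31.6%), and in EWS-OCT4 versus OCT4, 9 and 6 (31.9% and 34.6%). Ntn1, a laminin-related guidance protein, averaged 25.1 ± 1.796 CPM in J1, 2.25 ± 0.169 CPM in the OCT4 line and 43.1 ± 4.07 CPM in the EWS-OCT4 line, a 19.1-fold difference between the stable lines (log2 4.26, SE 0.117, edgeR adjusted p = 1.39e-14). Spp1 (osteopontin), an integrin ligand, was at 131 ± 10.7 CPM in J1, 376 ± 20.5 CPM in OCT4 and 359.9 ± 7.46 CPM in EWS-OCT4. Fbln2 was at 13.9 ± 0.8699, 14.1 ± 0.409 and 1.998 ± 0.639 CPM, Tgfbi at 9.16 ± 1.23, 30.3 ± 1.02 and 5.79 ± 1.38 CPM and fibrillin Fbn1 at 5.38 ± 0.379, 3.44 ± 0.766 and 12.5 ± 0.807 CPM in J1, OCT4 and EWS-OCT4.

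Among 13 matrix receptors other than integrins, 9 were higher and 2 lower in OCT4 versus J1 (against 34.3% and 32.7% of all tested genes). In EWS-OCT4 versus J1, 5 were higher and 7 lower (30.3% and 31.6%). In EWS-OCT4 versus OCT4, 1 was higher and 10 were lower (31.9% and 34.6%). The 1 higher gene was Bcam, a receptor for Lama5, at 30.6 ± 1.06 CPM in J1, 64.98 ± 0.565 CPM in the OCT4 line and 153 ± 4.38 CPM in the EWS-OCT4 line. Sdc4, the syndecan of focal adhesions, averaged 88.1 ± 14.1 CPM in J1, 249 ± 14.1 CPM in the OCT4 line and 43.3 ± 2.57 CPM in the EWS-OCT4 line. The collagen receptor Ddr2 was 3.29-fold lower in EWS-OCT4 than in OCT4, and the integrin-associated tetraspanin Cd9 was 2.69-fold and 1.96-fold higher in OCT4 and EWS-OCT4 than in J1. Sdc2 was lower in OCT4 than in J1 (log2 -0.93) and Sdc3 lower in EWS-OCT4 than in J1 (log2 -0.76).

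Inside the cell, of 30 integrin adhesion complex genes, 18 were higher and 6 lower in OCT4 versus J1 (median log2 0.30). Over all tested genes, 34.3% were higher and 32.7% lower in that comparison. In EWS-OCT4 versus J1, 11 of the 30 were higher and 8 lower (median 0.14), against 30.3% and 31.6% of all tested genes. In EWS-OCT4 versus OCT4, 6 were higher and 12 lower (median -0.11), against 31.9% and 34.6%. Parva, an actin-binding partner of integrin-linked kinase, averaged 4.97 ± 0.412 CPM in J1, 26.2 ± 1.97 CPM in OCT4 and 7.61 ± 1.27 CPM in EWS-OCT4. Tns1, a tensin that binds integrin tails, averaged 63.5 ± 2.38, 127 ± 8.02 and 25.7 ± 0.577 CPM, and Tns3, its relative, 128 ± 3.900, 157 ± 9.97 and 216 ± 5.77 CPM. Actn1, an actin cross-linker, was lower in OCT4 than in J1 (log2 -0.62) and higher in EWS-OCT4 than in OCT4 (log2 0.32). Talin (Tln1) was higher in EWS-OCT4 than in J1 (log2 0.88) and Tns2 lower (log2 -1.39), while in OCT4 versus J1 the kinase gene Src was higher (log2 1.17) and Arhgef7 lower (log2 -0.57).

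Of 19 matrix proteases and inhibitors, 10 were higher and 7 lower in OCT4 versus J1 (against 34.3% and 32.7% of all tested genes). In EWS-OCT4 versus J1, 8 were higher and 8 lower (30.3% and 31.6%), and in EWS-OCT4 versus OCT4, 5 and 11 (31.9% and 34.6%). Plau (urokinase) averaged 2.08 ± 0.111 CPM in J1, 1.39 ± 0.162 CPM in OCT4 and 14.3 ± 1.04 CPM in EWS-OCT4, and its receptor gene Plaur was 3.51-fold higher in EWS-OCT4 than in OCT4 (edgeR adjusted p = 7.3e-08). Plat, the tissue plasminogen activator that is also in the endoderm list, ran the other way, at 2.36 ± 0.285 CPM in J1, 10.1 ± 0.939 CPM in OCT4 and 1.71 ± 0.0872 CPM in EWS-OCT4. The serine protease gene Htra1 was 7.43-fold and 6.900-fold higher in OCT4 and EWS-OCT4 than in J1. Mmp2, a gelatinase that cleaves collagen IV and is also in the fibroblast list, was highest in J1, at 41.1 ± 2.76 CPM against 16.97 ± 0.429 and 9.79 ± 0.728 CPM. Timp3, a matrix-bound inhibitor, was lower in EWS-OCT4 than in either other group (log2 -2.01 versus J1 and -2.36 versus OCT4), and Serpine2 was lower in OCT4 than in J1 (log2 -1.21).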

How the data were processed

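Libraries of total RNA (9, RNAiso Plus extraction, CORALL V2 kit) were made, per the labels' protocols. For each library the authors deposited a table of unnormalized whole counts by gene symbol. Build GRCm39 and the tools STAR, Salmon, fastp and GATK, without versions or roles, are named in the submitters' processing notes. The sources used here do not state annotation, strand use, molecular identifiers or rounding, so overlapping, antisense or near-identical genes are uncertain.

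Groups and replicate numbers came from sample titles. Genes were kept by filterByExpr (minimum count 10, minimum total 15), leaving 16562, and scaled by TMM factors of 0.958 to 1.033. The 3 groups were fitted together over all 9 libraries with edgeR 4.0.16 under R 4.3.3 (robust glmQLFit, glmQLFTest), with Benjamini-Hochberg adjustment at 0.05. Standard errors are the log2 fold change over the square root of F. Summed levels, shares and ratios were compared by two-sided exact permutation tests (scipy 1.17.1). The fit was first tested on simulated data. Levels per kilobase and chromosomes used GENCODE M21, which is on another build than the counts. Chromosome medians used genes of at least 5 CPM. Promoter sequence is from RefSeq (GRCm38.p6), with upstream stretches ended before any exon annotated in GENCODE M21.

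Members, lists and the naming rule were chosen with earlier results of these data known. Values per library are given for members averaging at least 20 CPM in a group and, per class and comparison, for up to 2 per direction with the largest fold change among those past the threshold with at least 5 CPM. One basement membrane member is counted but not reported here. Lists name up to 2 members per direction. Same-group libraries varied beyond sampling noise (chi-square per degree of freedom 3.21 to 29.2). Alternatives were RLE and upper-quartile scaling, other low-count filters, DESeq2 1.42.0, a fit of only the compared groups, a replicate block and each library left out in turn.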

Additional observations from a re-analysis of the deposited data

How the results depend on the processing

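Counts of called members kept within 1.5 times the reported count under upper-quartile or RLE scaling, without a low-count filter, with the DESeq2 Wald test, with a fit of only the 6 libraries compared and each library left out. They moved further only where weak genes were dropped. Members lower in EWS-OCT4 versus OCT4 fell from 33 to 18 with a minimum of 5 CPM in 3 libraries. Over members with at least 5 CPM they fell to 20. In EWS-OCT4 versus J1 the fall was from 27 to 12 and 13. The 20 members between 1 and 5 CPM held 13 and 14 of these lower calls, and 1 higher call in each comparison. Leaving out 1 library at a time gave 17 to 20 higher and 29 to 33 lower members in EWS-OCT4 versus OCT4, 18 to 22 higher and 24 to 26 lower members in EWS-OCT4 versus J1 and 21 to 23 higher and 19 to 21 lower members in OCT4 versus J1.

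No called result changed sign, and 106 of 120 results of single members kept their side of the threshold under every alternative run. Of the 106, 5 that passed in no alternative had fold changes of both signs: Fn1, Itgb1 and Lama5 in EWS-OCT4 versus J1, Lamb2 in EWS-OCT4 versus OCT4 and Nid2 in OCT4 versus J1. The other 14 concern Col17a1, Col20a1, Col6a5, Col9a2, Fn1, Itga2b, Itga8, Itgal, Itgb3bp, Itgb4, Lamb3 and Nid2. Apart from left-out libraries, DESeq2 ended the calls of Col17a1 in EWS-OCT4 versus OCT4, Col6a5 in EWS-OCT4 versus J1 and Itga8 and Itgb3bp in OCT4 versus J1. Fitting without a low-count filter ended those of Col6a5 in EWS-OCT4 versus J1 and of Fn1 and Itga8 in OCT4 versus J1, and gave one for Col9a2 in EWS-OCT4 versus J1. A fit of only the 6 libraries ended the Fn1 and Itga8 calls in OCT4 versus J1, RLE scaling the Fn1 call, and Itga2b passed in OCT4 versus J1 with a minimum of 5 CPM in 3 libraries (adjusted p = 0.0456); the cause was not tested. No scaling moved the median of the 14991 tested genes that reached 1 CPM by more than 0.1 on the log2 scale.

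The labels give no pairing by replicate number, so the libraries were not treated as paired. Still, 5 of 9 same-numbered pairs of libraries deviated together with a correlation over 0.1. As a hint from the data, 8 of these 9 correlations were above 0, against 6 of 18 between different numbers. The 3 among libraries numbered 1 were 0.255 to 0.291, and 4 of 9 libraries correlated best with their own number. Deviations were taken from each group's mean, which ties the 18 correlations to the 9, so the 18 are no independent reference. With the replicate number as a block, 20 members were higher and 33 lower in EWS-OCT4 versus OCT4, 21 and 27 in EWS-OCT4 versus J1 and 23 and 21 in OCT4 versus J1. The block ended the Itga8 call in OCT4 versus J1 (adjusted p = 0.0571) and gave one for Col9a2 in EWS-OCT4 versus J1 (adjusted p = 0.00656). Standard errors of the described members under 5 CPM reached 0.67 on the log2 scale, for Itga11 in EWS-OCT4 versus J1. The part of depth in these errors was not tested.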
